A study of Rattus norvegicus with 6 samples.

Results

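The connexin and pannexin genes described here were Gja1, Gjb2, Gjb5, Gjc1 and Panx1, 5 of the 20264 gene symbols in a combined table of raw read counts. They were chosen by symbol as gap junction and pannexin genes, and selected on earlier values of the same comparison, its fold changes and p-values being known. The differences between groups given for them are therefore a description and carry no weight as evidence. RNA-seq was measured in 6 libraries of cultured nucleus pulposus cells (NPCs), the cells of the gelatinous core of the intervertebral disc. The NPCs came from the tail discs of male wild-type Sprague-Dawley rats. The TBHP group had 3 libraries of NPCs exposed to tert-butyl hydroperoxide, an oxidant used to bring on senescence. The TBHP+FGF21 group had 3 libraries of NPCs given the oxidant together with recombinant rat FGF21, a secreted metabolic hormone of the fibroblast growth factor family. All 6 libraries therefore carried the oxidant, and no untreated library was analysed here. In the treatment labels, replicate 1 of the TBHP+FGF21 group is marked FGF21, replicate 2 FGF22 and replicate 3 FGF23, while the design text names FGF21 for the whole group, and the design text was followed.

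Connexins are membrane proteins that assemble as hexamers in the plasma membrane. Hexamers of neighbouring cells dock to form gap junctions, through which ions and small metabolites pass. Pannexins form large-pore channels that release ATP and other metabolites to the outside of the cell and do not usually dock. Nucleus pulposus cells are coupled by gap junctions, with connexin 43 as the best known of their connexins.

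Library totals in the combined table lay between 18277732 and 22426190 counts. A floor of 3 counts, an approximate one-sided limit for a reading of 0, equalled 0.134 to 0.164 CPM (reads of a gene scaled to the library total). This limit and all intervals below cover counting error only. Replicate 2 of the TBHP+FGF21 group stood apart from its own group. Across genes its mean Spearman's rho was 0.996 with the 3 TBHP libraries and 0.990 with the other libraries of its group, so values without it are given below. TBHP replicate 3 was also slightly nearer to the other group (0.994) than to its own (0.993). The label of the cells was partly borne out by markers. Of the nucleus pulposus markers, Acan averaged 2709 ± 218 CPM among TBHP and 3565 ± 749 CPM among TBHP+FGF21 libraries (SD, n = 3 each), whereas Tbxt and Noto, which mark notochordal cells, had 0 counts in all 6 libraries, Col2a1 lay between 0.408 and 0.782 CPM and Krt19 was not analysed here. The rest of that list lay far below Acan. In the TBHP group Hif1a and Foxf1 averaged 118 and 42.0 CPM, and Sox9 and Krt8 5.78 and 3.82 CPM. Car3, Cd24, Car12 and Krt18 averaged 1.99, 1.86, 0.175 and 0.0715 CPM there. The 10 annulus fibrosus and fibroblast markers summed to between 34759 and 50286 CPM per library, of which Col1a1 made up 27868 to 42463 CPM. In the TBHP group Col3a1, Col5a1 and Thy1 averaged 3185, 2687 and 1055 CPM. Postn, Dcn, Fbln1 and Pdgfra averaged 206, 194, 119 and 92.4 CPM there, and Lum 8.90 CPM. Col1a2 was the lowest of the list, between 0.391 and 0.771 CPM over all libraries. Macrophage markers summed to between 26.6 and 38.2 CPM, most of it Cd14, with Ptprc and Adgre1 at 0, and endothelial markers to between 0.474 and 1.10 CPM, with Cdh5, Kdr and Emcn at 0.

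Gja1 encodes connexin 43, the most widespread gap junction protein. TBHP replicates 1 to 3 gave 25409, 31840 and 29924 reads of it, and TBHP+FGF21 replicates 1 to 3 gave 34126, 27946 and 40265. After TMM scaling these were 1419, 1444 and 1403 CPM against 1617, 1338 and 1755 CPM. The 3 TBHP libraries were close to each other, whereas replicates 1 and 3 of the TBHP+FGF21 group lay above all of them and replicate 2 below all of them, so the groups overlapped. The group means were 1422 ± 20.6 and 1570 ± 213 CPM (SD, n = 3 each). The coefficient of variation between libraries was 1.45% in the TBHP group and 13.6% in the TBHP+FGF21 group, where counting error alone gives 0.587% and 0.541%. The log2 fold change of TBHP+FGF21 over TBHP was 0.14 (standard error 0.11), becoming 0.25 when TBHP+FGF21 replicate 2 was dropped and 0.06 when replicate 3 was. In raw counts Gja1 was between the 50th and the 76th most abundant gene of every library. It took between 98.8% and 99.2% of all reads counted for the 14 connexin genes examined that had a row. These shares are of reads and take no account of transcript length, which was not used here.

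Gjb2 encodes connexin 26, a connexin of epithelia and the inner ear. Its reads numbered 39, 37 and 32 in TBHP replicates 1 to 3 and 12, 24 and 8 in TBHP+FGF21 replicates 1 to 3. The levels were 2.18, 1.68 and 1.5 CPM against 0.569, 1.15 and 0.349 CPM. Every TBHP library lay above every TBHP+FGF21 library, with replicate 2 of the latter group nearest to the TBHP group. The 95% Poisson interval of that library, from 0.736 to 1.71 CPM, overlapped those of all 3 TBHP libraries, the lowest of which ran from 1.03 to 2.12 CPM. The interval of replicate 3, from 0.151 to 0.687 CPM, overlapped none of them. Group means were 1.79 ± 0.352 and 0.689 ± 0.413 CPM (SD, n = 3 each), and the log2 fold change was -1.37 (standard error 0.38). Dropping TBHP+FGF21 replicate 2 gave -1.94, and dropping replicate 3 gave -1.04. The values rest on 108 reads in the TBHP group and 44 in the TBHP+FGF21 group. These are bulk libraries, in which fewer cells of a type and less RNA per cell cannot be told apart. Keratinocyte markers, which could accompany an epithelial connexin, summed to between 4.86 and 5.72 CPM in the TBHP group and between 3.70 and 6.17 CPM in the TBHP+FGF21 group. Of these markers Krt10 and Sfn made up most of the sum, Krt1, Dsg3 and Ivl were at 0 in every library, Krt5 had counts only in TBHP+FGF21 replicate 3, Tp63 had counts in the 3 TBHP+FGF21 libraries alone (8, 2 and 2), and Krt14 was not analysed here. With all libraries, no marker tested in any list had an adjusted p under 0.05 by edgeR. Without TBHP+FGF21 replicate 2, Acan (0.54), Sox9 (0.75), Foxf1 (0.42), Pdgfra (0.58) and Postn (-0.60, all in log2 units) had. In that fit 7.5% of all genes had an adjusted p under 0.05 by edgeR. The values that follow are from all libraries, where an unadjusted p under 0.05 by edgeR was met by 8.92% of all genes. Of the nucleus pulposus markers, 2 of the 8 tested (25%) had an unadjusted p under 0.05. These were Acan and Sox9, with log2 fold changes of 0.40 and 0.56. Of the same 8 markers, 3 had a higher and 5 a lower fitted level under FGF21, with a median of -0.19 in log2 units. Of the 10 annulus fibrosus and fibroblast markers, 2 (20%) had an unadjusted p under 0.05, Pdgfra at 0.39 and Postn at -0.43. Of these 10, 5 had a higher and 5 a lower fitted level. Postn was lower without overlap of the groups, as were 5% of all genes tested. The part of any of these cells in the Gjb2 difference was not tested.

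**Figure D1:**
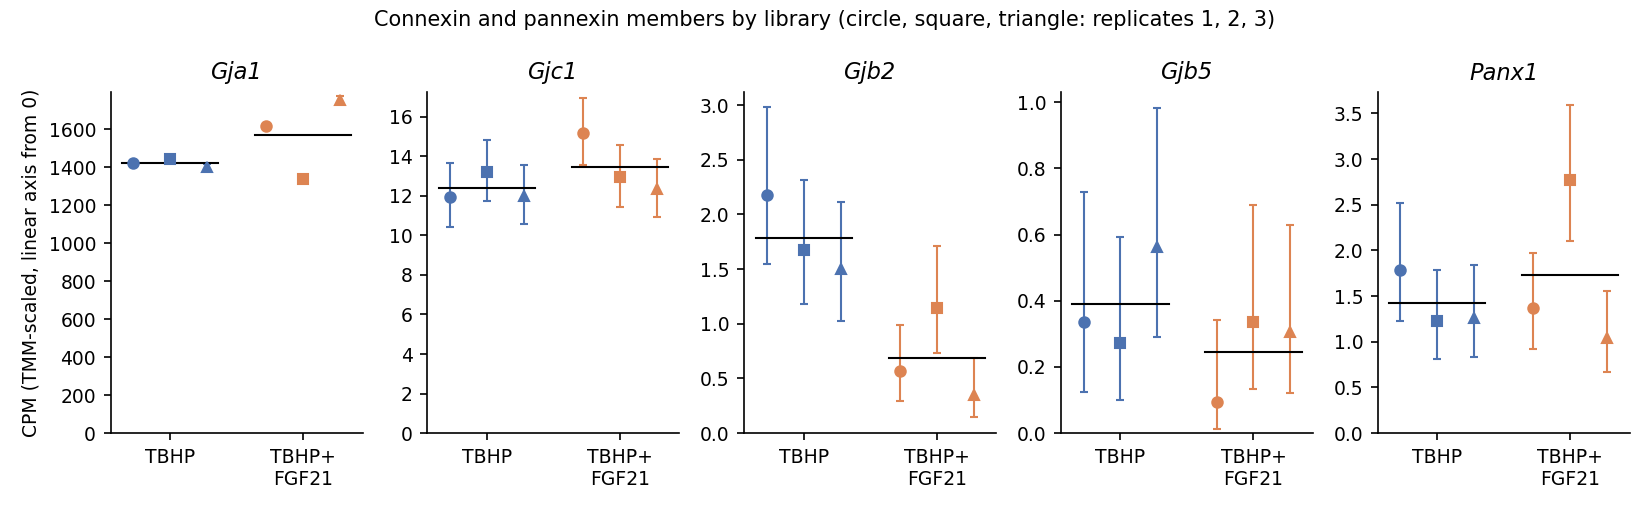
Levels of the 5 members in each library, in TMM-scaled CPM on a linear axis from 0 with a separate range for each gene. Points are libraries (circle, square and triangle for replicates 1, 2 and 3), bars are 95% Poisson intervals of the counts, and black lines are the means of 3 libraries. For Gjb2 the 3 TBHP libraries, at 1.5 to 2.18 CPM, lie above the 3 TBHP+FGF21 libraries, at 0.349 to 1.15 CPM, and for the other members the groups overlap.

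Gjc1 encodes connexin 45, known from the cardiac conduction system and smooth muscle. TBHP replicates 1 to 3 held 214, 291 and 256 reads of it and the TBHP+FGF21 replicates 320, 270 and 283, which is 11.95, 13.2 and 12 CPM against 15.2, 12.9 and 12.3 CPM. Only replicate 1 of the TBHP+FGF21 group lay above all TBHP libraries, and the other two fell among them. The log2 fold change was 0.12 (standard error 0.13) and lay between 0.04 and 0.19 in the fits that dropped 1 library. The coefficient of variation in the TBHP group, 5.68%, was below the 6.28% that counting error gives, so no spread beyond counting error was detectable there.

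Gjb5 encodes connexin 31.1, a connexin of skin and placenta. Only 6, 6 and 12 reads were counted in TBHP replicates 1 to 3 and 2, 7 and 7 in the TBHP+FGF21 replicates, or 0.335, 0.272 and 0.563 CPM against 0.0948, 0.335 and 0.305 CPM. The groups overlapped, and with 24 and 16 reads in all a difference between them was not detectable at this depth. It was the only member that did not pass the filter on low counts, so no fold change was fitted for it in the main comparison.

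Panx1 encodes pannexin 1, an ATP release channel opened among others by caspase cleavage and by P2X7 receptors. It was read 32, 27 and 27 times in TBHP replicates 1 to 3 and 29, 58 and 24 times in the TBHP+FGF21 replicates. The levels were 1.79, 1.22 and 1.27 CPM against 1.37, 2.78 and 1.05 CPM. Replicate 2 of the TBHP+FGF21 group was the highest of the 6 libraries and replicate 3 the lowest. The coefficient of variation in the TBHP+FGF21 group was 53.0%, where counting error gives 16.4%. The log2 fold change was 0.28 (standard error 0.36), and it turned to -0.22 without replicate 2, so that its direction was set by that library.

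The 4 members that passed the filter were fitted together with all other genes by edgeR's quasi-likelihood test. None of the 4 had an adjusted p under 0.05, with the smallest at 0.553 for Gjb2 by edgeR after Benjamini-Hochberg adjustment. Of the 11426 genes tested, 1 (0.00875%) had, and this was Sirt1, a deacetylase. In the combined table Sirt1 had 32, 38 and 35 reads in TBHP replicates 1 to 3 and 121, 111 and 113 in the TBHP+FGF21 replicates. The identifier with the same TBHP+FGF21 counts in the per-sample files had 92, 138 and 125 reads in the TBHP replicates there, and with the per-sample counts 0 genes had an adjusted p under 0.05 and 1082 an unadjusted p under 0.05 by edgeR. An unadjusted p under 0.05 was met by Gjb2 alone of the 4 members, and by 8.92% of all genes (4.63% higher and 4.29% lower in TBHP+FGF21). Gjb2 also had a fold change of more than 1 log2 unit at that p, as did 0.534% of the genes in either direction and 0.175% on the lower side. Groups without overlap, seen for Gjb2 alone of the 4, occurred in 9.9% of all genes tested (5% lower and 4.9% higher), and 3 libraries against 3 cannot go below p = 0.1 in a two-sided exact permutation test. When TBHP+FGF21 replicate 2 was dropped, Gjb2 had an adjusted p of 0.00591 by edgeR, and in that fit 7.5% of 11559 genes had an adjusted p under 0.05 (3.72% on the lower side). Since the members were chosen with this contrast known, nothing is read from these counts. In the other 5 fits with 1 library left out, no member had an adjusted p under 0.05.

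**Figure D2:**
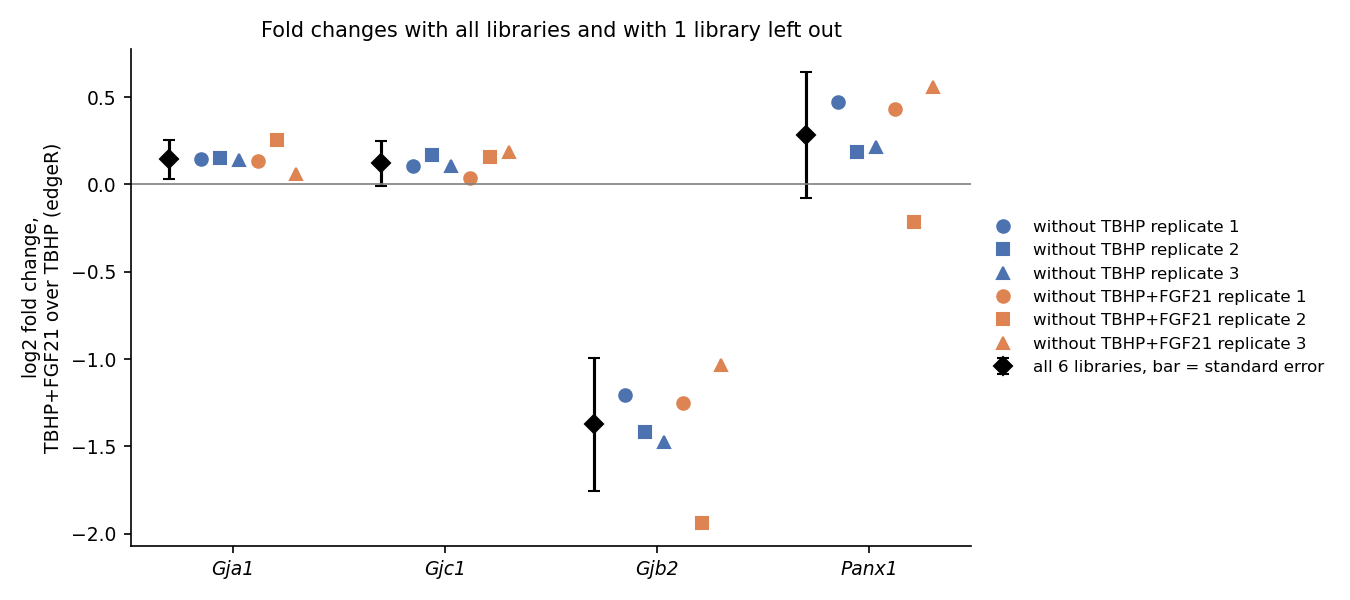
Log2 fold change of TBHP+FGF21 over TBHP for Gja1, Gjc1, Gjb2 and Panx1 by edgeR. Black diamonds are the fit on all 6 libraries with its standard error, and coloured points are fits with 1 library left out. Gjb2 stays between -1.94 and -1.04, while Panx1 turns from 0.28 to -0.22 when TBHP+FGF21 replicate 2 is dropped.

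The libraries were ordered differently by the members. Gja1 was highest in replicates 3 and 1 of the TBHP+FGF21 group, which were the libraries where Gjb2 was lowest. In replicate 2 of that group the order was turned round, with the lowest Gja1, the highest Panx1 and the highest Gjb2 of the group. Relative to the TBHP mean on the log2 CPM scale (prior count of 2), Gja1 was at 0.19, -0.09 and 0.30 in replicates 1, 2 and 3 of the TBHP+FGF21 group. Gjb2 was at -1.49, -0.58 and -2.07 on the same scale.

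By likeness of pattern, the genes nearest to Gja1 were Glt8d2, Spata13 and C1s, with a Pearson's r of log2 CPM over the 6 libraries of 0.997, 0.994 and 0.992. Nearest to Gjb2 were Tmem87b (0.993), Vnn1 (0.992) and Tspan2 (0.991). For Gjc1 they were Lekr1, Slc43a2 and Swsap1 (0.985 each), and for Panx1 they were Slc25a25 (0.985), Klf9 (0.983) and Chn2 (0.979). These values describe 6 points that share libraries, scaling and the 2 groups, and over 11426 genes high values arise readily, with 120 genes above 0.95 for Gja1 and 110 for Gjb2 but 17 for Gjc1 and 11 for Panx1.

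RefSeq's table of promoters (build GRCr8) held entries for 3 of the 5 members, Gja1, Gjb2 and Panx1, and not for Gjb5 or Gjc1. The 250 bases before the annotated start are shown for these 3, 5′ to 3′ on the strand of the gene, because they include the member with the most reads, the member with the largest fold change and the pannexin. Capitals mark matches, on either strand, to a GC box, an AP-1 motif, a TATA box or an E-box.
Gja1, chr20:36302314-36302563, plus strand: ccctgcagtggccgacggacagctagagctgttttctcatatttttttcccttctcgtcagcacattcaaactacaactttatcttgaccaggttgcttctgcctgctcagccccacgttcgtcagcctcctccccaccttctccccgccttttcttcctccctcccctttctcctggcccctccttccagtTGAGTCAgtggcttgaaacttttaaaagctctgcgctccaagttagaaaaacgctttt
Gjb2, chr15:35381954-35382203, minus strand: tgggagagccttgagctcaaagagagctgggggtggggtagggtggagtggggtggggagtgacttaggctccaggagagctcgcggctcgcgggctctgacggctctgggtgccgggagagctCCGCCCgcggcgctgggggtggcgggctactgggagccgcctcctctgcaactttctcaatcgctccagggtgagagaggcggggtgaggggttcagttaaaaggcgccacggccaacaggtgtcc
Panx1, chr8:20171201-20171450, minus strand: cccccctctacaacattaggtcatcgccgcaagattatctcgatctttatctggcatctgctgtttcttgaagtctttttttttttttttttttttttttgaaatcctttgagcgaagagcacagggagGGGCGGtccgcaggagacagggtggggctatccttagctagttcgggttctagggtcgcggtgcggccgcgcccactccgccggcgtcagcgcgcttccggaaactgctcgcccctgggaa
The Gja1 window held 1 AP-1 match, which begins 58 bases before the start, and no GC box. Gjb2 and Panx1 each held 1 GC box, beginning 126 and 121 bases before the start, and no AP-1 match. None of the 3 held the TATA or E-box letters. Of 33469 promoters of the same length, 6.34% held the AP-1 letters (TGANTCA). The GC box (GGGCGG) was held by 30.5% of them. The TATA box (TATAAA) was held by 12.9%. The E-box (CACGTG) was held by 5.59%. No match of these motifs overlapped another in the 3 windows. The GC content was 51.2% for Gja1, 67.2% for Gjb2 and 54.0% for Panx1, against a median of 51.2% over all promoters. Matches of letters describe the sequence and do not show that a factor binds there.

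Another 14 connexin and pannexin symbols were examined, of which 12 had a row in the combined table and 8 had at least 1 count. Gjb6, Gjc3, Gjd2 and Gjd4 had 0 counts in all 6 libraries. The 95% Poisson interval of a 0 count reached up to 0.161 to 0.206 CPM, depending on the library. Gja6 and Gjb1 were not analysed here. Gja4 (connexin 37, known from endothelium) averaged 1.21 ± 0.0682 and 1.06 ± 0.458 CPM, and Panx2 averaged 0.413 ± 0.0775 and 0.443 ± 0.180 CPM. The fitted differences in log2 units were -0.18 (standard error 0.34) and 0.12 (standard error 0.45), with an adjusted p of 0.855 and 0.932 by edgeR. Both turned sign with 1 library dropped, Gja4 to 0.10 without TBHP+FGF21 replicate 1 (and to -0.52 without replicate 2) and Panx2 to -0.09 without TBHP+FGF21 replicate 3. Gja5 had 12 counts in all, Gjd3 and Panx3 had 6 each, Gje1 had 2, and Gja3 and Gja10 had 1 each, too few to be tested. Neither Gja4 nor Panx2, the 2 of these genes that could be tested, had an unadjusted p under 0.05, which 8.92% of all genes had.

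**Figure D3:**
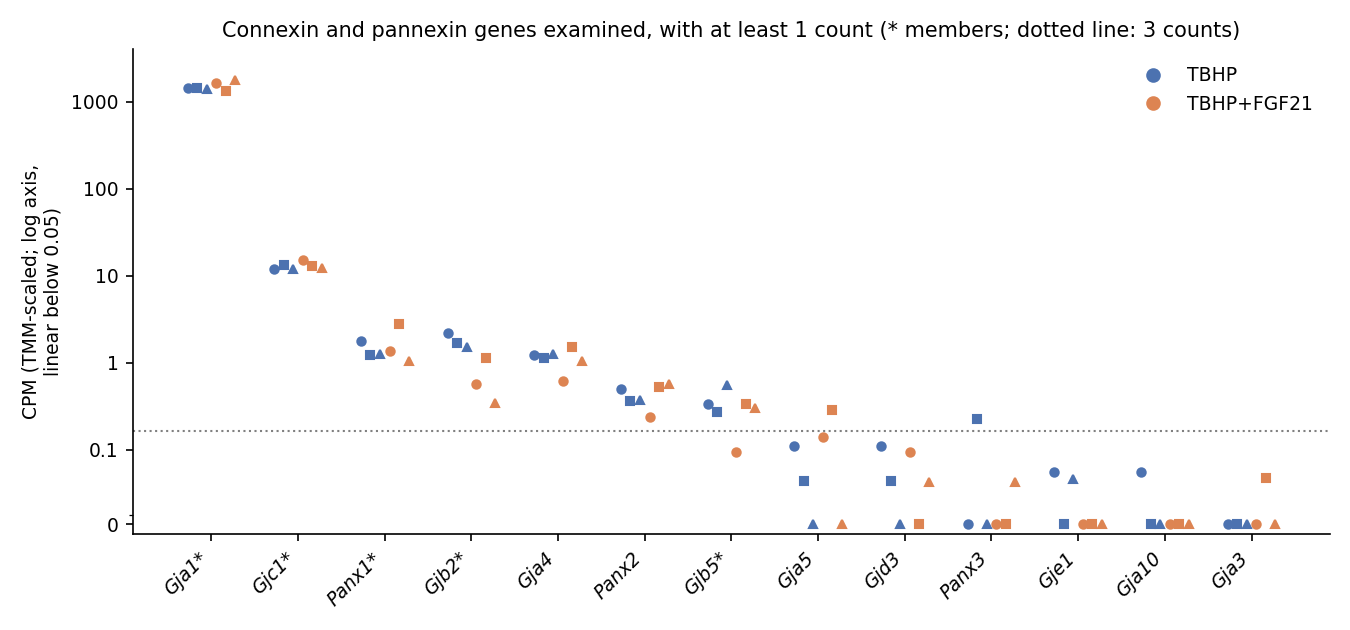
Level of each connexin and pannexin gene examined that had at least 1 count, by library, in TMM-scaled CPM on a log axis that is linear below 0.05. Blue marks are TBHP and orange marks TBHP+FGF21 libraries (circle, square and triangle for replicates 1, 2 and 3), asterisks mark the 5 members, and the dotted line is 3 counts in the shallowest library. Gja1 lies near 1422 CPM in the TBHP group, and Gjc1 near 12.4, and the rest lie at or under 2.78 CPM in every library.

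Ordered by CPM in the TBHP group, without regard to transcript length, the genes examined ran Gja1 (1422), Gjc1 (12.4), Gjb2 (1.79), Panx1 (1.43), Gja4 (1.21), Panx2 (0.413) and Gjb5 (0.390), with the others lower. Gja1 and Gjc1 differed from their neighbours by more than the spread between libraries. Gjb2 (1.5 to 2.18 CPM) overlapped Panx1 (1.22 to 1.79 CPM), which in turn overlapped Gja4 (1.13 to 1.27 CPM), and Panx2 and Gjb5 overlapped each other. In the TBHP+FGF21 group Gjb2, at 0.689 CPM, stood below Panx1 (1.73) and Gja4 (1.06), although its highest library, at 1.15 CPM, lay within the ranges of both. On chromosome 15 in GRCr8, Gjb6 (connexin 30) is a coding gene next to Gjb2, and it had 0 counts where Gjb2 had 152.

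Gap junctions are held in place and turned over by partner proteins, of which a list of 28 partners and regulators was examined. Cdh1 and Mapk7 had 0 counts in every library. Of the 28 genes, 25 could be tested, 14 with a higher and 11 with a lower fitted level under FGF21, and the median difference was 0.02 in log2 units against -0.0052 over all genes. None had an adjusted p under 0.05 by edgeR, and 2 (8%) had an unadjusted p under 0.05, where 8.92% of all genes had. That count lay between 0 (without TBHP replicate 2 or TBHP+FGF21 replicate 1) and 8 (without TBHP+FGF21 replicate 2), with 1 without TBHP replicate 1 or TBHP+FGF21 replicate 3, and was 4 with the replicate number as a block. Over all genes, 337 and 479, then 2732, then 510 and 341, and 1599 with the block had an unadjusted p under 0.05 by edgeR, in the same order of fits. With all libraries 1019 genes had. The 2 genes in the fit on all libraries were Ccn3, a matricellular protein that binds connexin 43, and Erp29, a chaperone of connexin 43 in the endoplasmic reticulum. Ccn3 was at 13.7 ± 1.19 and 10.6 ± 1.39 CPM (log2 fold change -0.37, standard error 0.14, adjusted p = 0.553 by edgeR). The 3 TBHP+FGF21 libraries of Ccn3, at 9.29, 12.1 and 10.5 CPM, all lay below the lowest TBHP library at 12.3 CPM. Of all genes tested, 5% were lower without overlap. Erp29 was at 34.2 ± 4.08 and 27.0 ± 3.98 CPM (log2 fold change -0.34, standard error 0.13, adjusted p = 0.553 by edgeR), with overlapping groups. The third smallest p belonged to Mapk3 (ERK1), a kinase that phosphorylates connexin 43, at 247 ± 15.7 and 289 ± 40.5 CPM (log2 fold change 0.23, standard error 0.11, adjusted p = 0.557 by edgeR). Its difference was 0.34 without TBHP+FGF21 replicate 2 and 0.14 without replicate 3. Tjp1 (ZO-1), the scaffold at the edge of gap junction plaques, averaged 123 ± 11.03 and 124 ± 7.19 CPM, a difference of 0.01 in log2 units (standard error 0.10). Without replicate 2 of the TBHP+FGF21 group, 2 of the 25 genes (8%) had an adjusted p under 0.05 by edgeR, against 7.5% of all genes in that fit, and these were Erp29 (-0.46) and Nedd4l (0.55), a ubiquitin ligase whose difference was 0.35 with all libraries and 0.10 without TBHP+FGF21 replicate 3.

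ATP that leaves through pannexin or connexin channels acts on P2 receptors and is broken down outside the cell to adenosine, which acts on adenosine receptors. Of 30 genes of extracellular nucleotide signalling, 16 could be tested, 9 with a higher and 7 with a lower fitted level under FGF21, and the median difference was 0.09 in log2 units. None had an adjusted p under 0.05 by edgeR. An unadjusted p under 0.05 was reached by 7 (43.8%), 5 of them higher and 2 lower, where 8.92% of all genes reached it. The count was 2 without TBHP replicate 2 or TBHP+FGF21 replicate 3, 3 without TBHP+FGF21 replicate 1, 4 without TBHP replicate 1 or 3, and 7 without TBHP+FGF21 replicate 2. Over all genes it was 337 and 341, then 479, then 510 and 1771, then 2732 by edgeR, in the same order of fits. With all libraries it was 1019. With all libraries, the higher genes were Alpl, Adora2b, P2rx5, P2rx4 and Adora2a, and the lower genes Enpp1 and Slc17a9. Alpl, a phosphatase that hydrolyses pyrophosphate and nucleotides at the cell surface, had the smallest p. It was at 1.62, 1.41 and 1.78 CPM in the TBHP group and 2.65, 2.49 and 3.27 CPM in the TBHP+FGF21 group (log2 fold change 0.81, standard error 0.23, adjusted p = 0.553 by edgeR), without overlap. The A2B adenosine receptor gene Adora2b rested on few reads, at 0.614, 0.272 and 0.234 CPM against 1.28, 0.814 and 0.698 CPM (log2 fold change 1.34, standard error 0.45, adjusted p = 0.553 by edgeR). The ATP-gated channel gene P2rx5 was at 10.67, 9.29 and 10.2 CPM against 13.7, 10.72 and 16.6 CPM (log2 fold change 0.45, standard error 0.16, adjusted p = 0.553 by edgeR), and its groups did not overlap, although replicate 2 of the TBHP+FGF21 group lay next to TBHP replicate 1. Without TBHP+FGF21 replicate 3 the difference of P2rx5 was 0.29. Alpl, Adora2b, P2rx5 and Adora2a were higher without overlap, as were 4.9% of all genes tested. Slc17a9 was lower without overlap, as were 5%. Enpp1, which cleaves extracellular ATP to AMP and pyrophosphate, averaged 221 ± 20.9 and 173 ± 44.6 CPM, a difference of -0.36 in log2 units (standard error 0.15) that was -0.22 without TBHP+FGF21 replicate 3. P2rx7, the receptor coupled to pannexin 1, was at 0.389 ± 0.201 and 0.619 ± 0.0975 CPM. Without replicate 2 of the TBHP+FGF21 group, 4 of the 16 genes (25%) had an adjusted p under 0.05 by edgeR, against 7.5% of all genes. These were Enpp1 (-0.58), P2rx5 (0.61), P2rx4 (0.40) and Alpl (0.90), and in the other fits that left out 1 library none had. Leaving out replicate 2, the library nearer to the TBHP group, took the genes with an adjusted p under 0.05 from 1 to 867 over all genes. Since the list was chosen with earlier results of these data known, nothing is read from its shares.

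**Figure D4:**
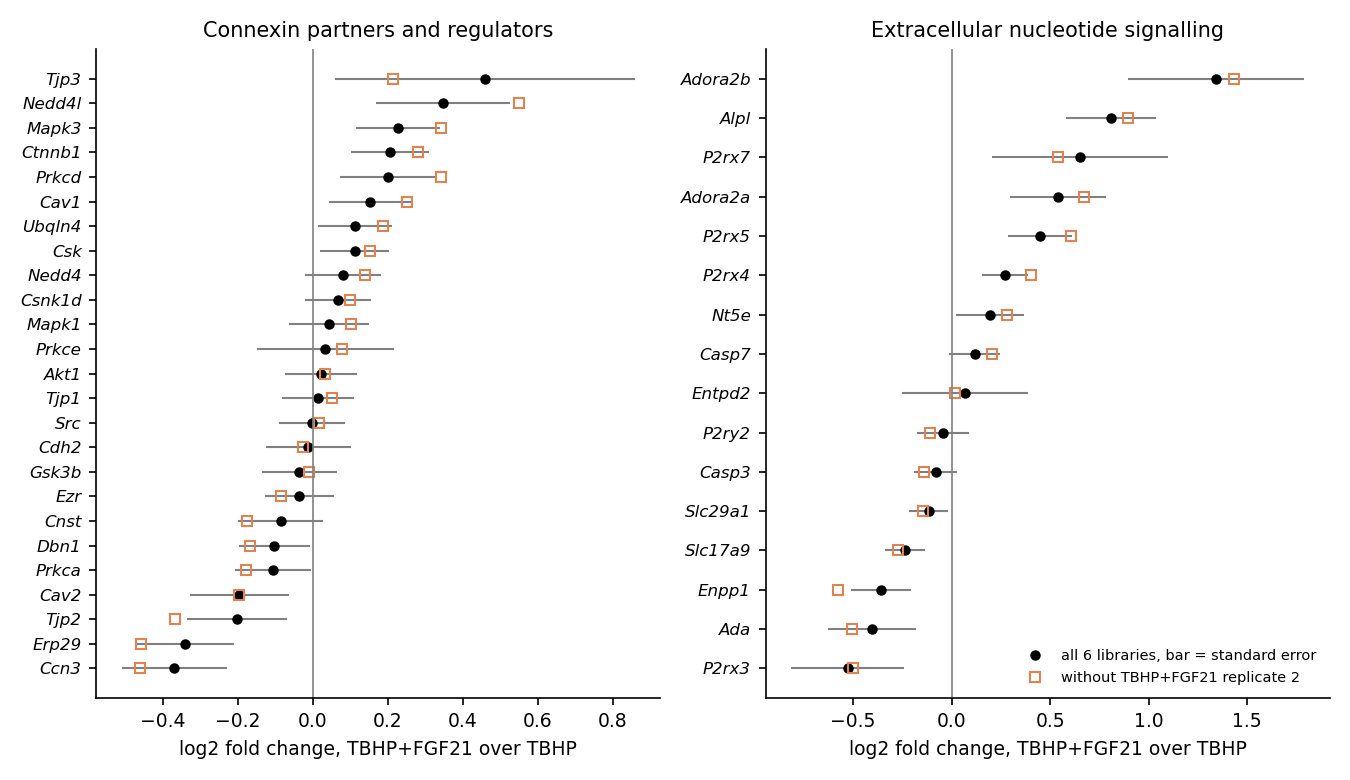
Log2 fold change of TBHP+FGF21 over TBHP for the 25 tested partners and regulators of connexins (left) and the 16 tested genes of extracellular nucleotide signalling (right). Black points with standard errors are the fit on all 6 libraries by edgeR, and open squares the fit without replicate 2 of the TBHP+FGF21 group. Most partners lie close to 0, and Adora2b (1.34) and Alpl (0.81) lie farthest above it.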

How the data were processed

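RNA-seq of poly-A RNA from 6 libraries was used, 3 per group, assigned by title and design text. Nothing states whether the libraries of a group came from separate animals beyond the design text's mention of biological replicates, so p-values measure the spread between these libraries. The authors deposited a combined table of unnormalized counts per gene symbol, used as estimated counts since 22 rows hold values that are not whole, which were rounded to whole numbers. They also deposited raw counts per Ensembl identifier for each library, unstranded and by strand. The submitters' processing notes name STAR and featureCounts. Each member's counts in the combined table equalled those of 1 identifier in the per-sample files. Tool versions, the genome build and the annotation are not given in the sources used here, and sequences and gene order were taken from RefSeq's GRCr8 tables by symbol, where all 19 family symbols examined matched. Reads that were unmapped, multimapping, outside genes or ambiguous (18.5% to 20.9% of the total) stayed out. The kit is directional by its label, but the strand columns had totals in a ratio of 0.978 to 0.986, so reads of overlapping antisense genes cannot be told apart.

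Counts were scaled by TMM, filtered by filterByExpr (minimum count 10, minimum total 15) and fitted with edgeR 4.0.16 in R 4.3.3 by a design of condition only (glmQLFit, glmQLFTest). P-values were adjusted by Benjamini-Hochberg over all 11426 genes, and each standard error was taken as the fitted difference over the root of its F statistic. The fits were tested on simulated counts. Alternatives were DESeq2 1.42.0, limma 3.58.1 (voom, and log2(CPM + 1)), other scalings and filters, the per-sample counts, the replicate number as a block and leaving out each library.

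The members and lists (other family genes, connexin partners, nucleotide signalling, and markers of nucleus pulposus, annulus and fibroblasts, macrophages, endothelium and keratinocytes) were chosen with earlier results of these data known. Some further connexin genes are not reported here. Named genes were the members, other family genes with a count, the 3 genes with the smallest p of the partner and nucleotide lists and any of their genes with an adjusted p under 0.05, the 3 genes most like each member by Pearson's r, markers beside a result, and Sirt1. The genes named beyond this (Tjp1, Enpp1, P2rx7, P2rx4, Adora2a, Slc17a9 and Nedd4l) were chosen after their values were seen.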

Additional observations from a re-analysis of the deposited data

How the results depend on the processing

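Among the 4 members tested, leaving out replicate 2 of the TBHP+FGF21 group was the only alternative run that changed a call (Gjb2) or a direction (Panx1). In fits that dropped 1 library, the log2 fold change of Gjb2 lay between -1.94 and -1.04 and that of Panx1 ranged from -0.22 to 0.56. Gja1 ranged from 0.06 to 0.25 and Gjc1 from 0.04 to 0.19. Gjb5 could be fitted only with no filter on low counts (-0.64, adjusted p = 0.771 by edgeR), and Gjb2 and Panx1 had too few counts for the stricter filter of 50 counts in 3 libraries.

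Across all genes, an adjusted p under 0.05 was met by 4 with DESeq2, 5 with no filter and 2 with the replicate block, and 0 with limma-voom, with the per-sample unstranded counts and with strand columns 3 and 4 by edgeR, where 996, 1082, 956 and 1049 passed before adjustment. With a library left out it ranged from 0 to 867 by edgeR, being 0 without TBHP replicate 1, 2 or 3 or TBHP+FGF21 replicate 1 (510, 337, 1771 and 479 before adjustment) and 867 without TBHP+FGF21 replicate 2. Same-numbered libraries did not all deviate together (r = -0.12, 0.21 and 0.15), and differently numbered ones had r from -0.26 to 0.18. So few values cannot settle whether the numbers pair the libraries. With the block, 1599 genes had an unadjusted p under 0.05 by edgeR, against 1019 without it. The block left Gjb2 at -1.41 (adjusted p = 0.118 by edgeR) and changed no call of a member. The median of the partners ranged from -0.023 to 0.097 and that of nucleotide signalling from 0.056 to 0.129 with a library left out, the former at 0.097 without TBHP replicate 3 and the latter at 0.056 without TBHP+FGF21 replicate 1. Of 20 recomputed levels, 19 stayed within 1 SD, and Gja1 in the TBHP group was at 1365 CPM with the per-sample counts. The cause of these changes was not tested. Depth limits Gjb2, Gjb5 and Panx1, where counting error alone gives 16.4% to 43.3% per library.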

Other observations

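The per-sample files count reads of each strand apart, and the reads of the members were split between both. For Gja1, TBHP replicate 1 had 12745 reads in one strand column and 12664 in the other. For Gjb2 the columns held 22, 17 and 20 against 17, 20 and 12 reads in the TBHP group, and 6, 14 and 5 against 6, 10 and 3 in the TBHP+FGF21 group. In neither column did the raw reads of the groups overlap for Gjb2, and the fitted differences in log2 units were -1.31 and -1.42. The columns split the same reads of the same libraries, so they are not separate observations. In the combined counts, 9.9% of all genes tested had groups without overlap, 5% on the lower side. In TBHP+FGF21 replicate 2, Panx1 had 32 and 26 reads in the columns, above every other library in each. The 6 counts of each member in the combined table were identical to those of exactly 1 Ensembl identifier: ENSRNOG00000000805 for Gja1, ENSRNOG00000008855 for Gjb2, ENSRNOG00000059897 for Gjb5, ENSRNOG00000048838 for Gjc1 and ENSRNOG00000010060 for Panx1.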
